A study of Mus musculus with 4 samples.

Results

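The variable (V) and joining (J) gene segments of the immunoglobulin loci were examined in RNA from leukemia-initiating cells (LICs) of a murine acute myeloid leukemia, in 2 WT and 2 CD274-null libraries, as their labels name them. The segments were chosen by their gene symbols and by their measured values: of 238 V and J segments of the heavy, kappa and lambda loci among the 27179 genes of the table, those with an FPKM above 0 in at least 1 of the 4 libraries were kept, which left 145, and the other 93 were listed at 0 in every library. The lowest value kept was 0.220, a single read of Ighv1-59, and no segment lies between it and 0. FPKM is the number of fragments divided by the length of the gene and by the number of mapped reads of the library. The labels give C57BL/6 mice aged 6 weeks, wild type or CD274-/-. In the study the leukemia of both groups was driven by the MLL-AF9 fusion oncogene. Fetal liver cells that carried it were transplanted into lethally irradiated C57BL/6 mice, so the genotype there is that of the transplanted cells. By the labels the LICs were cells sorted from bone marrow by flow cytometry, and by the study Mac-1+/c-Kit+ cells, but its sequencing methods speak of RNA from tissue, so the purity of the input is not settled by these sources. Transplant recipients may keep blood cells of their own after irradiation, and the labels do not say which cells in a library came from the host.

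B cells build each antibody gene by cutting and joining DNA: a heavy chain gene joins a V, a D and a J segment, a light chain gene joins a V and a J. The V segment encodes most of the antigen-binding domain, and the J segment encodes its end and links it by splicing to a constant region. Each B cell clone carries 1 productive heavy and usually 1 productive light chain rearrangement. Plasma cells, the antibody-secreting descendants of B cells, hold large amounts of this RNA.

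The J segments are printed because each is short enough to be read whole and because the highest FPKM values among the segments are theirs. The heavy J segments lie on the minus strand of chromosome 12, the kappa J segments on the plus strand of chromosome 6 and the lambda J segments on the minus strand of chromosome 16 of GRCm38 (RefSeq GRCm38.p6 coordinates, GENCODE M21 sequences, 5′ to 3′). Capitals mark the first match, on the coding strand only, to TGGGGNNNNGGN in heavy J and to TTNGGNNNNGGN in light chain J segments, the letters that encode the tryptophan- or phenylalanine-glycine-x-glycine turn of the J region.
Ighj1, chr12:113429781-113429833: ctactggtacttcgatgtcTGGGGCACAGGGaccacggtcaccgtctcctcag
Ighj2, chr12:113429468-113429515: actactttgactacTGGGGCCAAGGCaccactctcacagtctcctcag
Ighj3, chr12:113429085-113429132: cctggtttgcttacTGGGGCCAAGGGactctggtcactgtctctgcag
Ighj4, chr12:113428514-113428567: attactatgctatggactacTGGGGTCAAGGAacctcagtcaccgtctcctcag
Igkj1, chr6:70722562-70722599: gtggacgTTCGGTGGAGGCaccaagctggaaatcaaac
Igkj2, chr6:70722916-70722954: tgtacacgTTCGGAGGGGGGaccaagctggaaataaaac
Igkj3, chr6:70723223-70723260: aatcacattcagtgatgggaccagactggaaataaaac
Igkj4, chr6:70723548-70723585: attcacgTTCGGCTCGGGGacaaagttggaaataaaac
Igkj5, chr6:70723886-70723923: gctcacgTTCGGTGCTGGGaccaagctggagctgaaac
Iglj1, chr16:19063225-19063262: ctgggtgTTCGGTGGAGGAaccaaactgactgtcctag
Iglj2, chr16:19200198-19200235: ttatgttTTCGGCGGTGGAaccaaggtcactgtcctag
Iglj3, chr16:19067041-19067078: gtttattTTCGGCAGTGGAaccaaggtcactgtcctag
All 11 J segments above 0 hold the motif of their chain. Igkj3, the kappa J segment without a match, was the J segment listed at 0 in all 4 libraries. Aligned from their 3′ ends, Igkj1 and Igkj2 were identical at 84.2% of 38 bases, Igkj4 and Igkj1 at 71.1%, and Iglj3 and Iglj2 at 89.5%.

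For the V segments that led the heavy and kappa loci, the last 120 bases are printed, which run through the conserved tyrosine and cysteine codons into the third complementarity-determining region. Capitals mark the match to TANTNNTGN nearest to that place, searched on the coding strand. Ighv1-81 lies at chr12:115920279-115920572 on the minus strand, and Igkv1-110 at chr6:68270527-68271265, Igkv1-117 at chr6:68121091-68121825 and Igkv14-111 at chr6:68256404-68256869 on the plus strand.
Ighv1-81: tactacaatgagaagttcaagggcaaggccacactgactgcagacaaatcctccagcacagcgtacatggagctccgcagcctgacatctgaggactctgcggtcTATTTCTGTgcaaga
Igkv1-110: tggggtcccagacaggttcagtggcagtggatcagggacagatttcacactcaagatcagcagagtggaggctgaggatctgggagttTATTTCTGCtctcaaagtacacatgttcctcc
Igkv1-117: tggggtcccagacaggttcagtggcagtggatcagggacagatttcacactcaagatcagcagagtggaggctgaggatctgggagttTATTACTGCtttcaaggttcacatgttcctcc
Igkv14-111: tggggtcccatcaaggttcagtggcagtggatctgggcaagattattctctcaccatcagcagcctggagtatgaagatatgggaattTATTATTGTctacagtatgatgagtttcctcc
Igkv1-110 and Igkv1-117 were identical at 96.7% of these 120 bases. In the last 60 bases of the V segments the motif was present in 68 of the 70 heavy V segments above 0 (97.1%) and in 46 of the 50 at 0 (92%), and in 61 of 62 kappa V segments above 0 (98.4%) against 37 of 40 at 0 with a sequence (92.5%). GENCODE lists 131 of the 145 segments as V genes, 11 as J genes and 3 as V pseudogenes, and the pseudogenes held 9 reads.

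Because FPKM values are whole multiples of what 1 read is worth, the reads behind a value could be recovered for 144 of the 145 segments (the exception was Igkv4-70). For 131 of these, either the RefSeq span was taken as the length without comparing others (64 segments), or the number is the same for every gene length that could be fitted. Of the segments described singly, Igkv1-110, Igkv5-48 and Igkv3-5 are not among these 131, so their read numbers, and the kappa V shares that rest on them, depend on the length chosen. The libraries rested on 11568494 and 10181953 reads in WT against 8843737 and 9957760 in CD274-null. Cd274 itself did not separate the labels, since its FPKM was 2.80 and 0.945 under the WT label against 1.43 and 2.29 under the CD274-null label (limma adjusted p = 0.955, Benjamini-Hochberg), so every direction below rests on the labels. A value per gene does not show which exons were read. Xist, which is transcribed in female cells, had an FPKM of 2.57 and 51.1 in WT against 107 and 68.7 in CD274-null, and the Y-linked Ddx3y 27.1 and 18.1 against 0.0244 and 6.28, so sex markers moved with the labels and their part in the results was not tested. Nothing in the labels says that the libraries of a group came from separate animals, and the p-values measure the spread between these libraries, which may be technical.

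Reads on V and J segments were more frequent in the libraries labelled CD274-null, with the heavy and kappa loci many times above WT in both and lambda V in replicate 1 only. In WT, 12 and 16 segments were above 0 and held 41 and 38 reads, or 3.54 and 3.73 RPM, the usual scaling of reads to library size without gene length. In CD274-null, 113 and 84 segments were above 0, with 766 and 533 reads, or 86.6 and 53.5 RPM. Both CD274-null libraries lay above both WT libraries, and replicate 1 was the higher of the CD274-null libraries. Over pooled reads the ratio of CD274-null to WT was 19 (exact 95% interval 15.2 to 24.2, counting error only, since reads without molecular identifiers are not independent molecules). In bulk RNA, fewer cells of a type and less RNA per cell cannot be told apart.

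**Figure D1:**
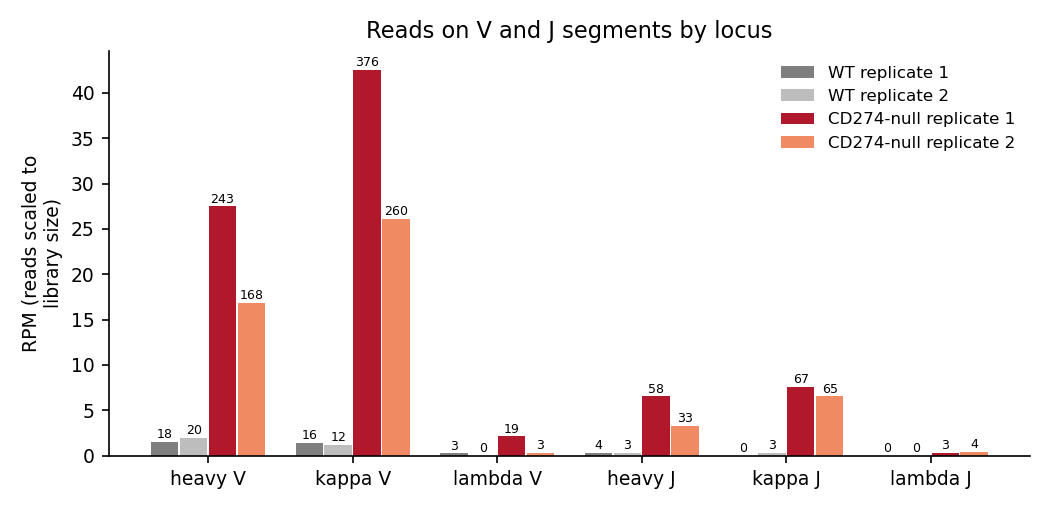
V and J segments by their RPM, reads scaled to library size (vertical axis), by locus and kind of segment (horizontal axis), with 1 bar for each library and the number of reads printed above it. Heavy V and kappa V segments stood at 27.5 and 42.5 RPM in CD274-null replicate 1 and at 16.9 and 26.1 in replicate 2, and below 2 in both WT libraries.

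By locus, heavy V segments held 18 and 20 reads in WT against 243 and 168 in CD274-null, a pooled ratio of 12.5 (8.96 to 17.9). Kappa V segments held 16 and 12 reads in WT against 376 and 260 in CD274-null, a ratio of 26.3 (18.0 to 39.9). The intervals of these 2 ratios did not overlap over the pooled reads, but with 2 libraries a group the difference between the loci was not tested over libraries. Heavy J segments went from 4 and 3 reads to 58 and 33 (ratio 15, interval 7.01 to 38.5), and kappa J segments from 0 and 3 to 67 and 65 (ratio 50.9, 17.0 to 250.0). Lambda V segments had 3 and 0 reads in WT against 19 and 3 in CD274-null, so that WT replicate 1 and CD274-null replicate 2 had the same number, and the ratio of 8.48 (2.55 to 44.3) rests on CD274-null replicate 1. Lambda J segments had 0 reads in both WT libraries and 3 and 4 in CD274-null, at least 2.70-fold higher against a floor of 3 reads over the WT group. Of the light chain V reads, kappa took 95.2% (Wilson 95% interval 92.6 to 96.9) and 98.9% (96.7 to 99.6) in the CD274-null libraries.

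J segments took a large part of the FPKM and a small part of the reads. Their share of summed FPKM was 42.8% and 58.8% in WT against 60.6% and 65.2% in CD274-null. Their share of reads was 9.76% and 15.8% in WT against 16.7% and 19.1% in CD274-null. The J segments are 38 to 54 bases long, about as long as the reads or shorter, and FPKM divides by that length, so reads are given beside each J value.

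**Figure D2:**
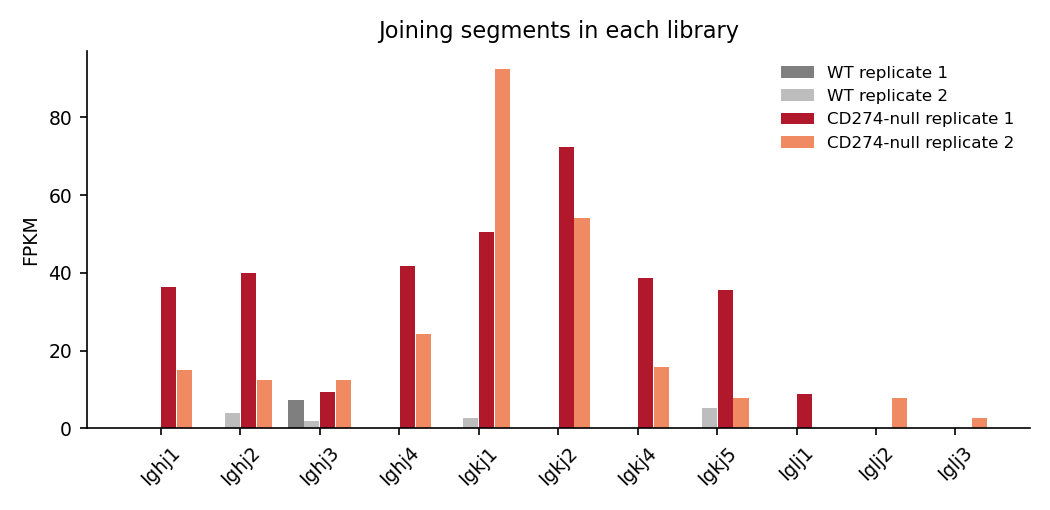
FPKM of each J segment (vertical axis) in each of the 4 libraries (bars). Igkj1 reached 92.5 in CD274-null replicate 2 and Igkj2 72.5 in replicate 1, while Ighj3 had the highest WT value, 7.20.

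Among heavy J segments, Ighj4 led in both CD274-null libraries. Ighj4 was at 0 in both WT libraries and at an FPKM of 41.9 and 24.2 in CD274-null, from 20 and 13 reads, at least 12.7-fold higher against the floor of 3 reads (adjusted p = 0.0119, limma). Ighj1 was likewise at 0 in WT and at 36.3 and 15.2 in CD274-null, from 17 and 8 reads, at least 9.64-fold higher (adjusted p = 0.0309, limma). For both of these segments the groups did not overlap, which in this direction held for 24.0% of all genes above 0. Ighj2 was at 0 and 4.09 in WT and at 40.0 and 12.6 in CD274-null, a log2 fold change on the log2(FPKM + 0.5) scale of 3.92 (standard error, SE, 1.05, limma adjusted p = 0.274). Its unadjusted p of 0.00917 passed 0.01, which with a fold above 1.5 is the limit for a call, but became 0.0188 without WT replicate 1, 0.134 without CD274-null replicate 1 and 0.04996 without replicate 2 in limma, and from 0.0141 to 0.0251 under 6 other settings. Ighj3, the single segment above 0 in all 4 libraries, had 7.20 and 2.05 in WT against 9.42 and 12.6 in CD274-null, from 4, 1, 4 and 6 reads. Its log2 fold change was 1.36 (SE 0.54, limma adjusted p = 0.350, unadjusted p = 0.0427). That change was 2.16 without WT replicate 1 and 0.563 without WT replicate 2, and 1.56 and 1.16 without CD274-null replicate 1 or 2. Neither Ighj2 nor Ighj3 overlapped between the groups.

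The intervals of each heavy J share overlapped between the CD274-null libraries. Ighj4 took 34.5% (Wilson 95% interval 23.6 to 47.3) and 39.4% (24.7 to 56.3) of heavy J reads, Ighj1 29.3% (19.2 to 42.0) and 24.2% (12.8 to 41.0), and Ighj2 29.3% (19.2 to 42.0) and 18.2% (8.61 to 34.4). Ighj3 was lowest in replicate 1, at 6.90% (2.71 to 16.4), and equal to Ighj2 in replicate 2, at 18.2%. In WT the 4 and 3 heavy J reads fell on Ighj3 and Ighj2 only.

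Among kappa J segments the order of the leading members differed between the CD274-null libraries. Igkj2 was at 0 in both WT libraries and at 72.5 and 54.1 in CD274-null, from 25 and 21 reads, at least 17.7-fold higher (adjusted p = 0.00245, limma). Igkj4 was at 0 in WT and at 38.7 and 15.9 in CD274-null, from 13 and 6 reads, at least 7.33-fold higher (adjusted p = 0.0309, limma). Igkj1 was at 0 and 2.58 in WT and at 50.6 and 92.5 in CD274-null, from 17 and 35 reads, with a log2 fold change of 5.79 (SE 0.82, limma adjusted p = 0.137). For these 3 segments, and for Igkj5, the groups did not overlap, although the unadjusted limma p of Igkj1 rose from 0.000342 to 0.0140 and 0.0216 when CD274-null replicate 1 or 2 was left out. Igkj5 had 0 and 5.17 in WT against 35.7 and 7.93 in CD274-null, from 0, 2, 12 and 3 reads, with a log2 fold change of 3.38 (SE 1.19, limma adjusted p = 0.329). That change was 1.62 without WT replicate 1 and 5.13 without WT replicate 2, and 2.32 and 4.43 without CD274-null replicate 1 or 2.

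Igkj1 took 25.4% (16.5 to 36.9) of kappa J reads in CD274-null replicate 1 and 53.8% (41.9 to 65.4) in replicate 2, intervals that did not overlap. Igkj5 went the other way, 17.9% (10.6 to 28.7) and 4.62% (1.58 to 12.7), with intervals that did. Igkj2 held 37.3% (26.7 to 49.3) and 32.3% (22.2 to 44.4). The lambda J segments each appeared in a single CD274-null library: Iglj1 at 8.93 in replicate 1 from 3 reads, and Iglj2 at 7.93 and Iglj3 at 2.64 in replicate 2 from 3 reads and 1 read. None of the lambda J segments was called with all 4 libraries (adjusted p from 0.502 to 0.531, limma). Without CD274-null replicate 2 the unadjusted limma p was 0.000640 for Iglj1, and without replicate 1 it was 0.00201 for Iglj3 and 0.000675 for Iglj2, fits in which the lone library is assumed to vary like the others.

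Heavy V segments above 0 numbered 70 of 120, and Ighv1-81 led them. Ighv1-81 was at 0 in both WT libraries and at an FPKM of 10 and 19.8 in CD274-null, from 26 and 58 reads, at least 32.4-fold higher (adjusted p = 0.0360, limma). It took 10.7% (Wilson 95% interval 7.41 to 15.2) of heavy V reads in CD274-null replicate 1 and 34.5% (27.8 to 42.0) in replicate 2, so a single segment, whose printed end is given above, held a larger share of the second library. Ighv1-26 was at 0 in WT and at 9.62 and 3.07 in CD274-null, from 25 and 9 reads, at least 13.1-fold higher (adjusted p = 0.165, limma). Of its 50-base windows 49.0% also occur in another gene, mostly Ighv1-34, so its reads too are uncertain, and 65 of the 70 heavy V and 49 of the 62 kappa V segments share some window (median 23.2% and 30.8%). Ighv5-17 had 0 in WT against 1.54 and 4.44 in CD274-null (at least 6.56-fold), and Ighv1-54 had 0 in WT against 4.23 and 1.37 in CD274-null (at least 5.78-fold), both with an adjusted p of 0.251 in limma. Without WT replicate 1 or 2 the unadjusted limma p of Ighv1-54 was 0.0115 and 0.0118, past the limit for a call. These 4 segments had no overlap between the groups. Ighv5-9-1 was at 5.38 in CD274-null replicate 1, from 14 reads, and at 0 in the other 3 libraries, so its groups overlapped (adjusted p = 0.510, and an unadjusted p of 0.000998 without CD274-null replicate 2, limma).

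Kappa V segments above 0 numbered 62 of 103, and Igkv1-110 led them in both CD274-null libraries. Igkv1-110 was at 0 in both WT libraries and at 13.6 and 17.2 in CD274-null, from 43 and 61 reads, at least 40.1-fold higher (adjusted p = 0.0164, limma). Its share of kappa V reads was 11.4% (8.60 to 15.1) in replicate 1 and 23.5% (18.7 to 29.0) in replicate 2. Igkv1-117, the near copy printed above, was at 0 in WT and at 5.38 and 8.72 in CD274-null, from 17 and 31 reads, at least 18.5-fold higher (adjusted p = 0.0666, limma). Of the 50-base windows of Igkv1-110, 50.9% also occur in another gene, mostly in Igkv1-117, so the split of reads between these 2 segments is uncertain. Igkv14-111, none of whose 50-base windows occurs elsewhere in the GENCODE transcripts, had 0 and 0.278 in WT against 7.69 and 6.26 in CD274-null, from 0, 1, 24 and 22 reads, with a log2 fold change of 3.58 (SE 0.40, limma adjusted p = 0.0891). These 3 segments stood above WT in both CD274-null libraries.

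Other leading kappa V segments were highest in CD274-null replicate 1. Igkv8-21 had 0.239 and 0 in WT against 10 and 0.832 in CD274-null (adjusted p = 0.333, unadjusted p = 0.0305, limma). Its log2 fold change was larger without CD274-null replicate 2 and smaller without CD274-null replicate 1. Igkv3-2 had 0 and 1.09 in WT against 9.13 and 0.839 in CD274-null, from 0, 4, 29 and 3 reads, so CD274-null replicate 2 lay below WT replicate 2 (adjusted p = 0.428, limma). Igkv8-21 kept both CD274-null libraries above WT, from 1, 0, 32 and 3 reads. Among lambda V segments, 2 of 3 were above 0. Iglv1 had 0.739 and 0 in WT against 4.83 and 0.858 in CD274-null (log2 fold change 1.77, SE 0.77, limma adjusted p = 0.381), and Iglv2 had 1.30 in CD274-null replicate 1, from 4 reads, and 0 elsewhere.

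The V signal was spread over many segments in the CD274-null libraries, and more evenly in replicate 1 than in replicate 2. Heavy V segments above 0 numbered 4 and 8 in WT against 55 and 36 in CD274-null. The effective number, the exponential of Shannon's entropy, which equals the number of segments that would give the same spread if all were used equally, was 3.75 and 6.59 in WT against 33.2 and 15.7 in CD274-null for heavy V. For kappa V the segments above 0 numbered 6 and 4 in WT against 47 and 37 in CD274-null, and the effective number was 4.13 and 3.07 against 25.5 and 19. In both loci the CD274-null libraries lay above the WT libraries in each of these numbers, which also grow with the number of reads. The highest pair of heavy V segments held 63.9% and 51.1% of heavy V FPKM in WT against 21.6% and 43.2% in CD274-null, and the highest pair of kappa V segments 75.1% and 83.5% against 19.7% and 35.0%.

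At equal numbers of reads the difference in spread was smaller. Drawn down to 18 reads, heavy V reads were expected on 4 and 7.78 segments in WT and on 13.5 and 10.6 in CD274-null. Drawn down to 12 reads, kappa V reads were expected on 5 and 4 segments in WT and on 9.25 and 8.37 in CD274-null. The CD274-null libraries remained above the WT libraries in both loci. Between the CD274-null libraries, at 168 reads, heavy V reads were expected on 47.9 segments in replicate 1 and fell on 36 in replicate 2, and at 260 reads kappa V reads were expected on 41.2 and fell on 37. An exact permutation test of 2 against 2 libraries cannot go below a two-sided p of 0.333, so none of these numbers was tested.

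**Figure D3:**
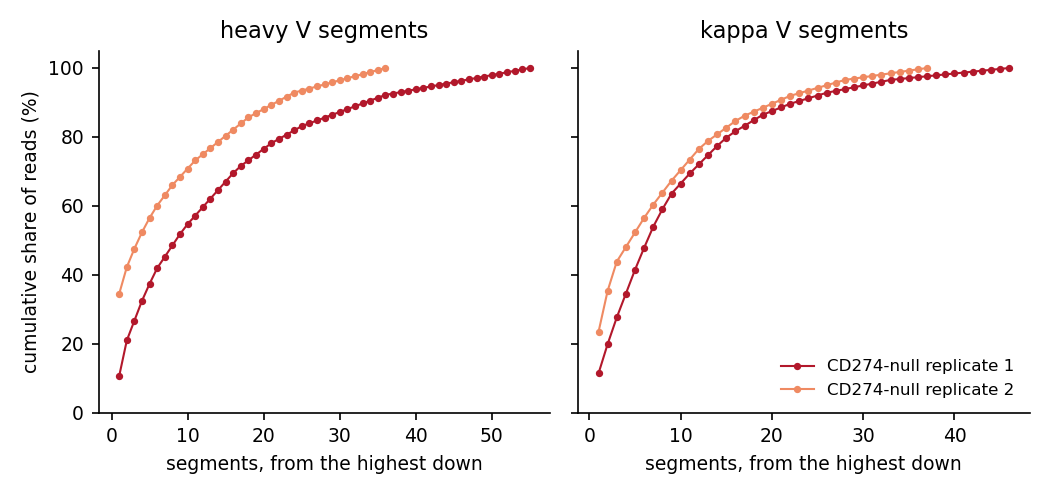
Cumulative share of V reads (vertical axis, %) over segments ranked from the highest down (horizontal axis) in the libraries labelled CD274-null, for heavy V and kappa V. The heavy V curve of replicate 2 starts at 34.5% with Ighv1-81 and that of replicate 1 at 10.7%, while the kappa V curves lie closer together.

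Many V segments were seen in a single CD274-null library. Of heavy V segments, 23 were above 0 in both CD274-null libraries, 41.8% of those of replicate 1 and 63.9% of those of replicate 2, and the shared segments held 61.7% and 79.8% of the reads. Of kappa V segments, 25 were shared, 53.2% and 67.6% of each list, with 72.9% and 83.5% of the reads. Single reads were common: 35 of the 145 segments had 1 read in all 4 libraries together and 18 had 2, whereas 40 had at least 10 and 11 at least 30. By library, 80 segments were above 0 in 1 library, 51 in 2, 13 in 3 and 1 in 4. At such depth a segment at 0 in a library was not detectable there and is not shown to be absent.

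Subgroups are families of V segments alike in sequence, and their shares of reads are given beside their shares of segments, without a test of proportionality. Ighv1, the largest heavy family with 60 of 120 segments (50%), held 5 and 18 reads in WT against 134 and 119 in CD274-null, 55.1% (48.9 to 61.3) and 70.8% (63.6 to 77.2) of heavy V reads there. Ighv5, with 10 segments of which 8 were above 0, had 0 reads in both WT libraries and 32 and 16 in CD274-null, or 13.2% (9.48 to 18.0) and 9.52% (5.95 to 14.9). Ighv8 also has 10 segments and had 2 and 2 reads in WT against 22 and 1 in CD274-null, 9.05% (6.05 to 13.3) and 0.595% (0.105 to 3.29) of heavy V reads. Its reads were most numerous in CD274-null replicate 1, while its share was 11.1% (3.10 to 32.8) and 10% (2.79 to 30.1) in WT. Ighv7, Ighv12, Ighv13, Ighv15 and Ighv16, families of 1 or 2 segments, had no reads.

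In the kappa locus the largest family held a smaller share of reads than of segments in both CD274-null libraries. Igkv4 has 28 of 103 segments (27.2%) and had 5 and 0 reads in WT against 41 and 7 in CD274-null, 10.9% (8.14 to 14.5) and 2.69% (1.31 to 5.45) of kappa V reads. Igkv1, with 10 segments (9.71%) that include Igkv1-110 and Igkv1-117, had no WT read and 67 and 97 reads in CD274-null, 17.8% (14.3 to 22.0) and 37.3% (31.7 to 43.3). Igkv8, with 11 segments, had 2 and 0 reads in WT against 97 and 27 in CD274-null, 25.8% (21.6 to 30.4) and 10.4% (7.24 to 14.7). The lead thus passed from Igkv8 in replicate 1 to Igkv1 in replicate 2. Igkv3, with 9 segments, led in WT replicate 1 with 8 of 16 reads, and had 5 of 12 in WT replicate 2 and 30 and 5 in CD274-null. Igkv5, with 5 segments, had 0 reads in WT against 36 and 20 in CD274-null.

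**Figure D4:**
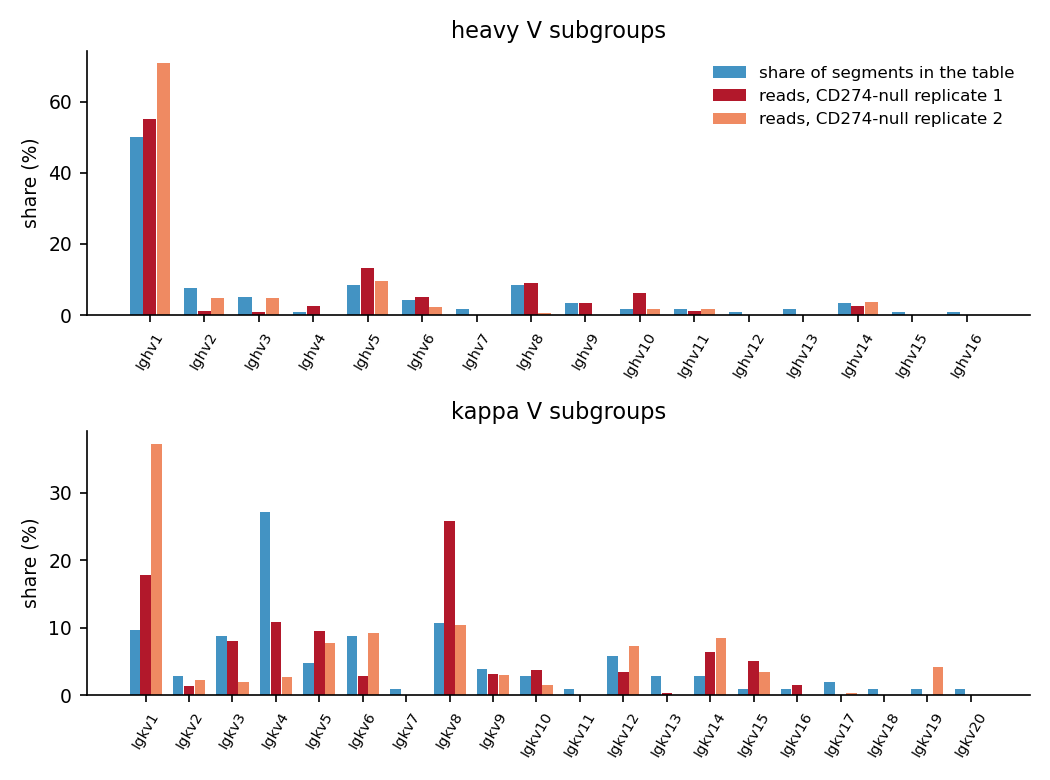
Share of the V segments in the table that belong to each subgroup (blue) beside the share of V reads on that subgroup in the libraries labelled CD274-null (red and orange), both in %, for heavy V (upper panel) and kappa V (lower panel). Ighv1 leads the heavy locus, and Igkv4 has 27.2% of kappa segments but 10.9% and 2.69% of reads.

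Segments along the whole of both V clusters were read. Split at the middle segment by distance from the J cluster, the far 60 heavy V segments, from 1254 to 2581 kb, held 62.1% (55.9 to 68.0) and 63.7% (56.2 to 70.6) of heavy V reads in CD274-null. In WT the same far segments held 2 of 18 reads in replicate 1 and 20 of 20 in replicate 2. The far 51 kappa V segments, from 1323 to 3167 kb, held 43.9% (39.0 to 48.9) and 62.3% (56.3 to 68.0) in CD274-null and 5 of 16 and 7 of 12 reads in WT. The intervals of the CD274-null libraries overlapped for heavy V and not for kappa V. Igkv1-110, Igkv1-117 and Igkv14-111 lie in the far group. Of the near 60 heavy V segments 31 were above 0 and of the far 60, 39, and of kappa V segments 33 of 52 near and 29 of 51 far.

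**Figure D5:**
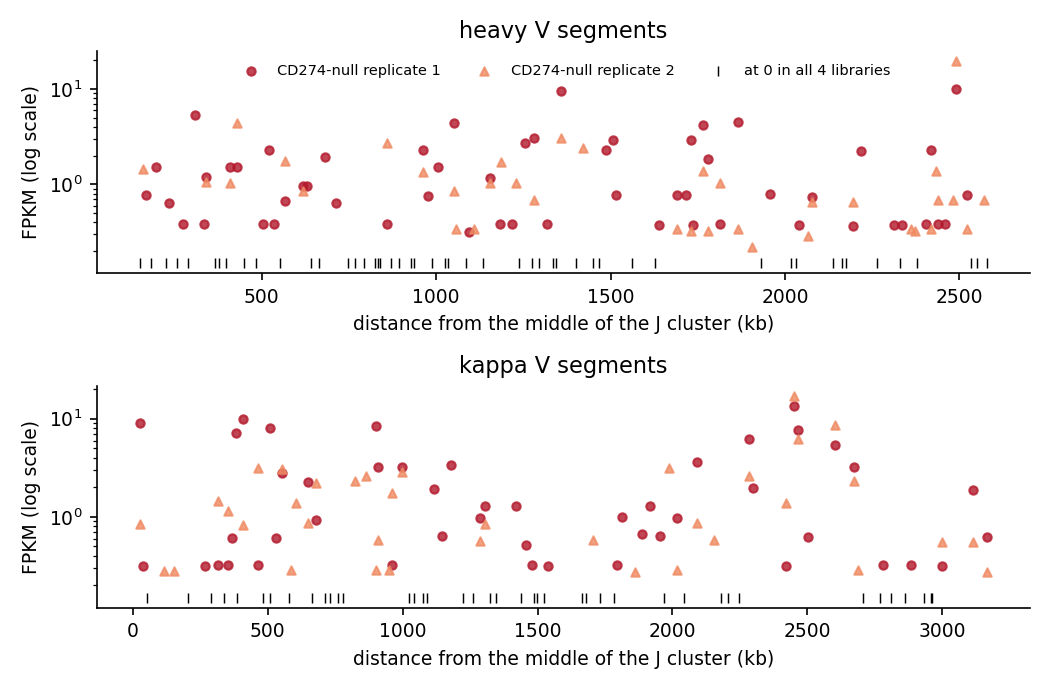
FPKM of heavy V and kappa V segments (vertical axis, log scale) against the distance of each segment from the middle of its J cluster (horizontal axis, kb) in the libraries labelled CD274-null, with ticks for segments at 0 in all 4 libraries. Ighv1-81 has the highest heavy V value of both libraries near the far end, and Igkv1-110 the highest kappa V value.

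Across the table, limma tested the 13230 genes whose mean FPKM was 0.5 or more, and 65 of the 145 segments passed this filter. Of these, 22 were higher in CD274-null and 0 lower at an unadjusted p under 0.01 and a fold above 1.5, whereas 2.39% of all tested genes were called higher. At an unadjusted p under 0.05 in either direction there were 34 segments, where 13.7% of all tested genes passed. With Benjamini-Hochberg adjustment over all tested genes, 6 segments passed 0.05 (Igkj2, Ighj4, Igkv1-110, Igkj4, Ighj1 and Ighv1-81), where 0.0756% of all genes did, and the other 16 had adjusted p-values from 0.0666 to 0.274. A segment at 0 in WT passes the filter only through its CD274-null values and 19 of the 22 were at 0 in both WT libraries, so these counts describe the segments that were detected and are not independent evidence of a direction. The called segments were 7 of 28 tested heavy V, 3 of 4 heavy J, 9 of 25 kappa V, 3 of 4 kappa J and none of the 4 tested lambda segments, of which 0 were called by voom on recovered reads and 0 had an unadjusted p under 0.05. The median log2 fold change was 1.8 over the tested segments and 0.01 over all tested genes. Without the filter it was 0.95 over all 145 segments, of which 29 were called higher and 1 lower, against 1.83% and 0.751% of all genes in that fit. Without CD274-null replicate 1 or 2 the number called was 28 and 40, beside 1.43% and 0.884% of all tested genes called higher, and the number with an adjusted p under 0.05 was 0 in both, as it was over all 13230 genes. Without WT replicate 1 or 2 these were 16 and 17 called, beside 2.28% and 2.93% of all genes, and 1 and 4 adjusted, of 3 and 13 genes in all.

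Over all 145 segments, whether or not they passed the limma filter, 52 had both CD274-null libraries above both WT libraries, where 24.0% of all genes above 0 did. Of these, 43 were above 0 in both CD274-null libraries and at 0 in both WT libraries, against 1.77% of all genes above 0. Only 26 of the 145 were above 0 in a WT library, and the others were kept through their CD274-null values alone. These counts, and the median over all 145 segments, are therefore not independent evidence of a direction either. The called V segments outside those named so far were all at 0 in WT. Among them, Igkv5-48 had 3.26 and 2.89 in CD274-null, Igkv8-27 2.83 and 3.07, and Igkv9-120 3.25 and 2.31, from 8 to 11 reads in each library. The other 3 kappa V segments of this kind were Igkv10-96 at 3.61 and 0.873, Igkv6-32 at 2.28 and 0.868 and Igkv8-34 at 0.929 and 2.20. The heavy V segments were Ighv5-16 at 1.54 and 1.02, Ighv2-9-1 at 1.19 and 1.05 and Ighv1-9 at 1.15 and 1.02, from 3 or 4 reads each. These 6 lost their calls without WT replicate 1 (unadjusted limma p from 0.0106 to 0.0284) or WT replicate 2 (0.0126 to 0.0294), and with voom on recovered reads (0.0108 to 0.0204), and Igkv10-96 and Igkv6-32 also without CD274-null replicate 1 (0.01004 and 0.01014).

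Few segments carried the WT signal, and few reads lay behind them. Of the 145 segments, 26 were above 0 in at least 1 WT library and 2 in both, Ighj3 and Ighv8-4. Ighv8-4 was the single segment with both WT libraries above both CD274-null libraries, at an FPKM of 0.590 and 0.670 from 2 reads each, and at 0 in CD274-null. Igkv3-5 had an estimated 7 reads in WT replicate 1 (FPKM 1.69), a number that depends on the length chosen, and was at 0 in the other libraries. Other segments seen in WT and not in CD274-null were Ighv1-58, Igkv3-9 and Igkv3-1. Ighv1-73 had 0 and 2 in WT against 0 and 0.340 in CD274-null, and Ighv1-12 1.47 and 0 in WT against 0 and 1.71 in CD274-null. For both segments the groups overlapped, with log2 fold changes of -0.79 (SE 0.82, limma adjusted p = 0.695) and 0.08 (0.93, adjusted p = 0.977). Leaving out WT replicate 2 turned these to 0.37 and -0.91. Ighv6-3 had 1.73 and 0 in WT against 2.27 and 1.34 in CD274-null (adjusted p = 0.538, limma), so WT replicate 1 lay between the CD274-null values. Igkv15-103 had 0 and 1.70 in WT against 6.19 and 2.60 in CD274-null (adjusted p = 0.334, limma). The log2 fold changes of Ighv6-3 and Igkv15-103 were larger without the WT library that held their reads and smaller without the other WT library.

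Constant region genes, to which rearranged segments are spliced, were read in the same libraries. Of 13 constant genes and partners, 10 were tested and 7 were called higher in CD274-null, none lower, where 2.39% of all tested genes were called higher. Of these, 2 had an adjusted p under 0.05 in limma, where 0.0756% of all tested genes did. The summed FPKM of the 13 was 23.4 and 22.7 in WT against 410 and 478 in CD274-null. Igkc, the kappa constant gene, had 8.64 and 7.98 in WT against 214 and 189 in CD274-null (adjusted p = 0.00245, limma). Igha, which encodes the IgA heavy chain, had 5.08 and 0 against 114 and 102 (adjusted p = 0.178, limma), and Ighm, which encodes the IgM heavy chain, 9.04 and 14.1 against 49.1 and 162 (adjusted p = 0.247, limma). Jchain, which links IgA and IgM into polymers, had 0.370 and 0.514 against 12.3 and 10.5 (adjusted p = 0.0369, limma). The groups did not overlap for any of these 4 genes, which in this direction held for 24.0% of all genes above 0. They did overlap for Ighg1 and Ighe, which were at 0 in both WT libraries and in CD274-null replicate 1.

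Markers of B cells and plasma cells ranged from absent to abundant, and Jchain alone among them was called. Of 20 B cell markers 3 were tested and 0 called by limma or by voom on recovered reads, with 1 at an unadjusted p under 0.05, and their summed FPKM was 15.6 and 40.7 in WT against 44.2 and 45.3 in CD274-null, most of it Cd79b at 12.8, 36.2, 35.6 and 37.4. Pax5, a transcription factor of B cells, was at 0 in both WT libraries and at 0.0936 and 0.416 in CD274-null, and Ms4a1 was at 0 except for 0.0976 in CD274-null replicate 2. Vpreb2 was at 0 in all 4. Of 12 plasma cell markers 5 were tested and Jchain alone was called, with a summed FPKM of 210 and 104 in WT against 186 and 138 in CD274-null that overlapped between groups. Xbp1, a transcription factor of secretory cells that many other cells also express, made up most of that sum, at 177 and 66.8 in WT against 133 and 106 in CD274-null. Other tested members were Tnfrsf13b, a receptor of B lineage cells, at 12.4 and 23.6 against 13.3 and 10.2, and Fkbp11 at 19.0 and 12 against 24.3 and 8.05, neither of them called. Mzb1, a chaperone of antibody-secreting cells, was at 0 in WT and at 0.998 and 0.333 in CD274-null, and Sdc1, the plasma cell surface marker CD138, at 0.113 and 0.225 against 0.185 and 0.296. The part of such cells in the segment values was not tested.

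Of 11 plasmacytoid dendritic cell markers 5 were tested and Tcf4 was called (1.74 and 2.72 in WT, 7.40 and 23.6 in CD274-null), with summed FPKM of 59.2 and 69.2 against 79.0 and 125. Of 13 T cell markers 4 were tested and 0 called by limma or voom (1 at an unadjusted p under 0.05), with sums of 4.35 and 6.27 against 9.33 and 4.29. Of 12 genes of the labelled myeloid cells, all tested, Mpo was called (444 and 403 against 1427 and 925), while Itgam, which encodes part of Mac-1, had 140 and 174 against 100 and 164, and Kit 6.59 and 18.2 against 16.2 and 19.5. Of 12 V(D)J recombination genes 9 were tested and 0 called by limma or voom (0 at an unadjusted p under 0.05), and Rag1, Rag2 and Dntt, which act only during rearrangement in lymphoid precursors, were at or below 0.148 in every library. T cell receptor V and J segments, built by the same recombination, gave 33 of 222 above 0, with 9 and 22 in WT against 14 and 9 in CD274-null, and summed FPKM of 5.08 and 19.3 against 16.6 and 5.50. Their groups overlapped, unlike those of the immunoglobulin segments, a contrast that was not tested.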

How the data were processed

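RNA of LICs, sorted by the labels although the study's sequencing methods speak of tissue, was sequenced in 2 WT and 2 CD274-null libraries. Reads were aligned by the authors to GRCm38 with TopHat2 2.0.12 (CASAVA 1.8.2 is also named in the submitters' processing notes), who deposited 1 FPKM value per gene and library; the counting tool, gene lengths and strand setting are not given in the sources used here. Symbols came from the NCBI gene numbers through RefSeq GRCm38.p6 (25275 of 27179), and 0 sample columns were unassigned. The members and lists were chosen with earlier results of these data known. A gene of the marker lists is not reported here.

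Reads were recovered as FPKM times length times depth, with depth from genes of 1 exon (97.6% to 99.1% of their values whole within 0.05 reads), and 99.3% of segments were whole within 0.02 reads plus 0.0015 per read. The lmFit and eBayes functions of limma 3.58.1 (R 4.3.3, trend on, Benjamini-Hochberg) were applied to log2(FPKM + 0.5) of all genes whose mean FPKM was 0.5 or more, with no covariate. The fit was tested on simulated data with known fold changes around each gene's mean, which does not vouch for the p-values of segments at 0 in WT. Called means p under 0.01 and a fold above 1.5. Intervals used scipy 1.17.1 in Python 3.11.15 at 95% and cover counting error only. Segments named were all J segments above 0, the 5 highest V segments per locus by mean FPKM and the 5 highest in WT, those with an adjusted p under 0.05, and those with both WT libraries above both CD274-null libraries; further called segments, and those above 0 in WT only, were named after their values were seen. Alternatives were another pseudocount (1 or 0.1), no filter or a minimum mean FPKM of 5, quantile or median scaling, eBayes without trend, a replicate block, a GC correction (loess, span 0.3), each library left out and, added after seeing the data, voom on the recovered reads.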

Additional observations from a re-analysis of the deposited data

How the results depend on the processing

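The number of segments called higher was 22 and stayed between 15 and 29 under 10 other settings and fell to 8 with a mean FPKM of at least 5, where 10 segments were tested. Over all genes 1.61% to 2.52% were called higher under these 11 settings. Leaving out 1 library gave from 16 to 40. The number with an adjusted p under 0.05 was 6 and became 0 without a filter on low values (43 segments with an unadjusted p under 0.05), 2 with a mean FPKM of at least 5, 3 with quantile normalization, 3 with equal medians, 3 without trend and 0 with voom on recovered reads, an alternative added after seeing the data (32 with an unadjusted p under 0.05), and there 0 of all genes had an adjusted p under 0.05. It ranged from 0 to 4 when 1 library was left out (from 30 to 47 with an unadjusted p under 0.05). Beyond the 145 tested without a filter and the 10 tested with the strict one, the cause of these losses was not tested. Deviations of same-numbered libraries had a correlation of -0.015 over 13230 genes, which cannot settle whether the replicate numbers of the labels are a pairing. With the number as a replicate block the counts were 19 called and 8 adjusted, and with a GC correction beside the block 19 and 6.

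Keeping only values of at least 1 FPKM changed the mean number of heavy V segments from 6 to 2.5 in WT and from 45.5 to 19.5 in CD274-null, and that of kappa V segments from 5 to 2 and from 42 to 19.5. At the same number of reads the CD274-null means were 12.1 and 8.81. With the 1 FPKM limit the share of the highest pair in WT went from 57.5% to 86.2% for heavy V and from 79.3% to 100% for kappa V. The effective number went from 5.17 to 2.46 for heavy V in WT, from 3.60 to 1.96 for kappa V in WT and from 22.2 to 14.8 for kappa V and 24.4 to 13.7 for heavy V in CD274-null. Without the 2 highest segments the summed FPKM in WT fell from 5.71 to 2.47 for heavy V and from 3.61 to 0.759 for kappa V. The CD274-null means stayed above the WT means for the numbers of segments, effective numbers and summed FPKM of heavy V and kappa V under these settings. The sum of recovered reads planned beside summed FPKM is another unit and stands in the report as reads. Of the 26 named segments tested, Ighv1-73 and Ighv1-12 changed sign without WT replicate 2 (0.37 and -0.91), and Ighv1-12 without CD274-null replicate 2 (-0.99). Over the 4 fits that leave out 1 library, Ighv1-73 ranged from -1.95 to 0.37 and Ighv1-12 from -0.99 to 1.15. Among these 26, Ighj2 alone lost its call where it was still tested under settings other than leaving out a library; other called segments also lost theirs, such as Ighv1-9, Ighv2-9-1 and Ighv5-16 with the replicate block (unadjusted limma p from 0.0141 to 0.0211). Igkv8-21 gained a call with the replicate block (0.00541) and with the block beside a GC correction (0.00969). Depth limits all of this, since no recovered WT value rests on more than 7 reads by the lengths used.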
